A study of Mus musculus with 34 samples.

Results

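Liver and skeletal muscle run much of central metabolism with different genes for the same reaction, and the isoform genes of both tissues were compared here in wild-type mice. The comparison rests on 8 of the 34 Affymetrix arrays of the series, 4 of liver and 4 of anterior tibialis, all from mice 3 months of age. A further 8 arrays, 4 of liver and 4 of tibialis, came from muscle glycogen synthase knockout mice of the same age and were used as a separate comparison. The labels name no allele, cell type or promoter for the knockout beyond the gene, and no treatment for any group. The tibialis labels give the mixed strain C57BL6/129SV, and the liver labels give no strain. The genes described are the members of 63 families of transporters, enzymes and subunits for which more than 1 gene is known. Some of these families group genes of different steps of a pathway. The families hold 200 genes, of which 168 had a probe set with a single gene name and were measured. Each gene was assigned, from textbook knowledge, to liver (55 measured), muscle (45), most tissues (24) or another pattern (44).

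The liver moves glucose in both directions across its membrane, stores it as glycogen, makes it from lactate, glycerol and amino acids, and exports it to the blood through glucose 6-phosphatase. Muscle takes up glucose under insulin control, stores glycogen for its own use rather than for export, and burns glucose and fatty acids for contraction. Isoforms differ in affinity, in regulation and in location in the cell, so the isoform a tissue carries is part of how its metabolism is set.

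Values are intensities on a linear scale, and each gene was read by the probe set with the highest mean over the 8 wild-type arrays. Array medians ran from 305.4 to 318 in liver and from 329 to 389.3 in tibialis. Correlations between arrays were 0.9715 to 0.9769 within liver, 0.9556 to 0.9707 within tibialis and 0.6802 to 0.6916 between the tissues. All liver arrays belong to 1 code series of the labels and all tibialis arrays to another, and the starting RNA was about 10 µg for liver and 5 µg for tibialis. Tissue, code series and RNA amount therefore cannot be told apart, nor can fewer cells of a type and less RNA per cell. Whether every array is a separate animal is not stated, so p-values cover only the spread between these samples. Differences are liver minus tibialis in log2(value + 50), SE is the standard error of that difference in the limma model, and a gene passed at an adjusted p (limma, Benjamini-Hochberg over 22626 probe sets) under 0.05. Of all probe sets, 51.6% passed, 20.5% higher in liver and 31.1% higher in tibialis, and 12.4% were at least 2-fold higher in liver and 17.6% were at least 2-fold higher in tibialis. The median difference over all probe sets was -0.13, and it became -0.01 with all arrays set to a common median.

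The labelled tissues carried their own markers. All 12 measured hepatocyte markers were higher in liver (median difference 8.17), and their intensities summed to 549192 to 591872 in liver and 1516 to 2181 in tibialis. Fgb, a fibrinogen chain, read 50586, 49878, 46669 and 53598 in liver, against 12.4, 6.0, 12.2 and 10.7 in tibialis. All 12 fast fibre markers were higher in tibialis (median -8.80), and they summed to 1036 to 1457 in liver and 551854 to 627834 in tibialis. Tnni2, the fast troponin I, read 8.4, 10.1, 10.6 and 10.4 in liver, against 79608, 83636, 69986 and 81821 in tibialis. Of 11 slow and cardiac fibre markers, 8 were higher in tibialis and 1, the calcium pump gene Atp2a2, was higher in liver (1.63). Markers of other cells also differed, with all 9 endothelial and all 8 fibroblast and tendon markers higher in tibialis. Of 9 measured Kupffer cell and macrophage markers, 5 were higher in liver and 1 was higher in tibialis.

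Among the 168 isoform genes, 138 passed, 68 higher in liver and 70 higher in tibialis. At least 2-fold differences were found for 57 genes in the liver direction and 58 in the tibialis direction, out of the 12.4% and 17.6% of all probe sets given above. Of the 55 genes named for liver, 49 were higher in liver, 45 of them at least 2-fold, and the median difference was 3.64. Of the 45 genes named for muscle, 38 were higher in tibialis, 33 of them at least 2-fold, and the median was -4.47. Over the genes of most tissues 6 were higher in liver and 11 in tibialis, and over those of another pattern 10 and 20. The genes that did not pass numbered 5 named for liver, 4 for muscle, 7 of most tissues and 14 of another pattern. Of the 57 families with at least 2 measured genes, 27 had a member at least 2-fold higher in each tissue. A further 9 families had such members only for liver and 16 only for tibialis, while 5 had none. Some families group different steps, and the 27 include ketone synthesis and use, and creatine synthesis and uptake. Not all of the 27 are therefore exchanges between genes of the same step. Over all probe sets, the 8 genes of highest difference were Apoa1, Fgb, Serpina1b, Arg1, Fabp1, Ahsg, Ttr and Plg, all secreted liver proteins except the isoform genes Arg1 and Fabp1. The 8 of lowest difference were Tnni2, Tnnc2, Myh4, Mb, Actn3, Myl1, Trdn and Acta1, genes of the contractile apparatus, of calcium release and of oxygen binding.

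**Figure D1:**
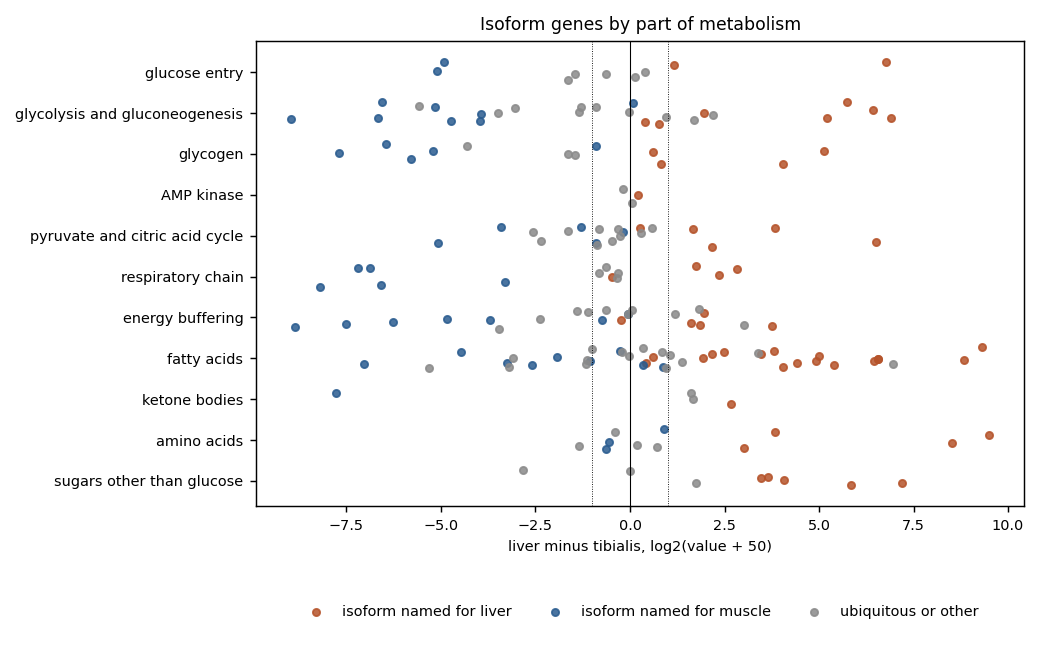
Difference between liver and tibialis (x axis, log2(value + 50)) for the 168 isoform genes, in rows by part of metabolism and coloured by the tissue each isoform is named for. Dotted lines mark 2-fold differences. Of the genes named for liver, 49 of 55 passed on the right of 0, and 38 of 45 named for muscle passed on the left.

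At glucose entry the tissues exchanged isoforms. Slc2a2, the high-capacity liver glucose transporter, read 9226, 8129, 7625 and 8484 in liver, against 15, 29.3, 32.2 and 32.4 in tibialis (6.77, SE 0.13, adjusted p = 3.61e-10). Slc2a4, the insulin-responsive transporter of muscle and fat, read 411, 411, 342 and 426 in liver, against 15146, 13437, 13166 and 12586 in tibialis (-4.93, SE 0.12, adjusted p = 1.51e-09). The groups did not overlap for either gene, as for 49.0% of all probe sets. Slc2a3, a high-affinity transporter, was also higher in tibialis (-1.64), while Slc2a9, a urate transporter, was higher in liver (1.18). Slc2a1, found in most tissues, read 412 to 815 in liver and 293 to 631 in tibialis, with overlapping groups, and did not pass. Hk2, the insulin-responsive hexokinase, averaged 306 ± 64 in liver and 12077 ± 1041 in tibialis (SD, n = 4 each; -5.10, SE 0.15, adjusted p = 4.40e-09). Hk1, the widely expressed hexokinase, was higher in tibialis by a smaller amount (-1.45).

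The muscle isoforms of glycolysis were higher in tibialis at most steps. Pfkm, the muscle subunit of the committing enzyme phosphofructokinase, read 1182, 1104, 956 and 913 in liver, against 38941, 38337, 36828 and 41685 in tibialis (-5.17, SE 0.12). Pfkl, its liver subunit, read 1577, 1237, 1919 and 1072 in liver, against 961, 932, 1121 and 420 in tibialis. The groups overlapped, and the difference of 0.77 (SE 0.30) missed the threshold with an adjusted p of 0.0553. Pfkfb3, which makes a sugar bisphosphate that activates glycolysis, read 71.5 to 79.1 in liver and 4576 to 6749 in tibialis (-5.58). Aldoa, the muscle aldolase, was higher in tibialis (-3.97), and Aldoc, named for brain, was higher in liver (2.19) at 575 to 800 against 79.4 to 133 in tibialis. Eno3, the muscle enolase, read 370 to 574 in liver and 47221 to 53812 in tibialis (-6.66). The probe set of Aldoa carries the array maker's x suffix, given to sets that may share probes with other transcripts, as do those of Cox8a, Slc25a5, Elovl5, Aqp7, Aco1 and Phkg1 among the genes given below.

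Pyruvate kinase was exchanged as well. Pklr, the liver and red cell gene, read 1444, 1434, 1809 and 1556 in liver, against 363, 334, 305 and 480 in tibialis (1.95, SE 0.15). Pkm, the gene of the muscle enzyme, read 226, 270, 214 and 205 in liver, against 27082, 26832, 23123 and 27020 in tibialis (-6.55, SE 0.12). Phosphoglycerate mutase gave the lowest difference of all isoform genes. Pgam2, its muscle gene, read 32.4, 33.9, 32.6 and 30 in liver, against 41623, 42245, 37125 and 43818 in tibialis (-8.97, SE 0.11, adjusted p = 5.43e-11). Pgam1, found in most tissues, read 2216, 2748, 2550 and 2233 in liver, against 718, 810, 817 and 532 in tibialis (1.70, SE 0.16). Tibialis therefore read both genes, and liver read Pgam2 below its dim level, the 40th percentile of all probe sets of an array (198.5 to 207.4 in liver and 207.4 to 261.3 in tibialis).

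The promoters of the phosphoglycerate mutase genes differ in base composition. The windows below run from 250 bases before to 50 after the RefSeq start, on build GRCm38.p6. Capitals mark the E box CAGCTG, which is its own reverse complement and is a recognition site of the myogenic factors, and the motif GTTAAT on either strand, the core recognised by the liver-enriched HNF1 factors. No pair of these matches overlapped. The Pgam1 window (chr19:41911621-41911920, plus strand) held 30 CpG dinucleotides and neither motif. The Pgam2 window (chr11:5803747-5804046, minus strand) held 1 CpG and 1 E box, 125 bases before the start.
Pgam1: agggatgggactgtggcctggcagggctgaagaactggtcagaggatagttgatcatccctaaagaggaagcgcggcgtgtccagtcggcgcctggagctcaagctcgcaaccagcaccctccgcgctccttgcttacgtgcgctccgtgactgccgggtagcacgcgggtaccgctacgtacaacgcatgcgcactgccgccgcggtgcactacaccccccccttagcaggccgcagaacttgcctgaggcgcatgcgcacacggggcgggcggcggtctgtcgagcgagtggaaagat
Pgam2: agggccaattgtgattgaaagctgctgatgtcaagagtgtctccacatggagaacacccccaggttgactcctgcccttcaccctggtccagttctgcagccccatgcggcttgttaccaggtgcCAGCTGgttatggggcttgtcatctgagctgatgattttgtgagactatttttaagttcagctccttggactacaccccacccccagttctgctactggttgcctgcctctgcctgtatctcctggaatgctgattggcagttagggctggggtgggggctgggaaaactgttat

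The lactate step was not divided by the gene named for muscle. Ldha, the lactate dehydrogenase subunit named for muscle, read 34450, 40275, 36518 and 40247 in liver, against 34537, 39880, 32204 and 36678 in tibialis. The groups overlapped throughout, and the difference was 0.08 (SE 0.12, adjusted p = 0.611), turning to -0.15 after quantile normalization. Ldhb, named for heart, read 962 to 1236 in liver and 7610 to 9953 in tibialis (-3.04). The lactate transporters did divide. Slc16a7 read 1752 to 2543 in liver and 8.0 to 12.6 in tibialis (5.20), and Slc16a3, the exporter of glycolytic muscle, read 214 to 278 in liver and 5937 to 8898 in tibialis (-4.73). Slc16a1, the widely expressed carrier, read 3925 to 4670 in liver and 3741 to 4921 in tibialis and did not pass.

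Gluconeogenesis and glucose export separated the tissues. G6pc, the catalytic subunit that releases free glucose, read 13089, 14226, 15072 and 13815 in liver, against 166, 231, 182 and 297 in tibialis (5.73, SE 0.16). G6pc3, its widely expressed relative, read 75.6, 71.1, 40.3 and 68.6 in liver, against 1202, 1374, 1239 and 1078 in tibialis (-3.49, SE 0.14). Slc37a4, which carries glucose 6-phosphate to these enzymes, read 7937 to 11159 in liver and 6270 to 8008 in tibialis, a difference of 0.40 (SE 0.15, adjusted p = 0.05). That call ended without liver array 1, 2 or 4 or tibialis array 1, 3 or 4 (0.31 to 0.45). Fbp1, the liver fructose bisphosphatase, read 38456 to 47073 in liver and 192 to 383 in tibialis (6.90). Fbp2, the muscle gene, read 87.7 to 158 in liver and 2063 to 2928 in tibialis (-3.95). Pck1, the cytosolic phosphoenolpyruvate carboxykinase, read 14821 to 17504 in liver, against 51.8, 323, 316 and 35.6 in tibialis (6.43, SE 0.48). The tibialis arrays 2 and 3, where Pck1 was high within that tissue, were also those with most Adipoq, an adipocyte hormone, at 1953, 4295, 5752 and 1279 in tibialis against 55.5 to 95.7 in liver. The part of adipocyte RNA in the Pck1 readings was not tested. The G6pc promoter (chr11:101367466-101367765, plus strand) is shown for its GTTAAT match 221 bases before the start and held 4 CpG dinucleotides.
G6pc: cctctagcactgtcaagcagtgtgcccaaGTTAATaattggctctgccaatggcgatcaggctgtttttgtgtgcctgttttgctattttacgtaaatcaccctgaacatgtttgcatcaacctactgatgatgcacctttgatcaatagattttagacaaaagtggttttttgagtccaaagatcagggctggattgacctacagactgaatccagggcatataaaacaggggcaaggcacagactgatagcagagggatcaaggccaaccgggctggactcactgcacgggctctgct

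Glycogen synthase and phosphorylase each had a gene higher in liver and another higher in tibialis. Gys2, the liver glycogen synthase, read 3673, 3785, 2957 and 3691 in liver, against 75.2, 93.0, 21.3 and 31.8 in tibialis (5.14, SE 0.23). Gys1, the muscle synthase, averaged 56.8 ± 13.9 in wild-type liver and 9271 ± 772 in wild-type tibialis (SD, n = 4 each; -6.45, SE 0.14). Pygl, the liver phosphorylase that breaks glycogen down, read 6928 to 8026 in liver, against 270, 374, 831 and 288 in tibialis (4.06, SE 0.29). Pygm, the muscle phosphorylase, read 224, 145, 47.9 and 155 in liver, against 39747, 34876, 34986 and 39937 in tibialis (-7.69, SE 0.28). Pygl was above the dim level in both tissues. Pygb, named for brain, was higher in tibialis (-1.46) at 438 to 523 against 73.4 to 318 in liver.

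Phosphorylase kinase, which activates the phosphorylases, was less symmetrical. The muscle subunits Phka1 (-5.20) and Phkg1 (-5.80) and the shared subunit Phkb (-4.31) were all higher in tibialis. The liver subunits Phka2 (0.83) and Phkg2 (0.62) passed in the liver direction without reaching 2-fold. Phka2 read 1176 to 1470 in liver and 708 to 737 in tibialis, and Phkb read 277 to 357 in liver and 6287 to 9415 in tibialis. Ppp1r3c, a scaffold that brings phosphatase to glycogen, was higher in tibialis (-1.65), at 15091 to 18512 against 4345 to 7609 in liver. None of the 3 measured subunits of AMP kinase, the energy sensor, passed.

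**Figure D2:**
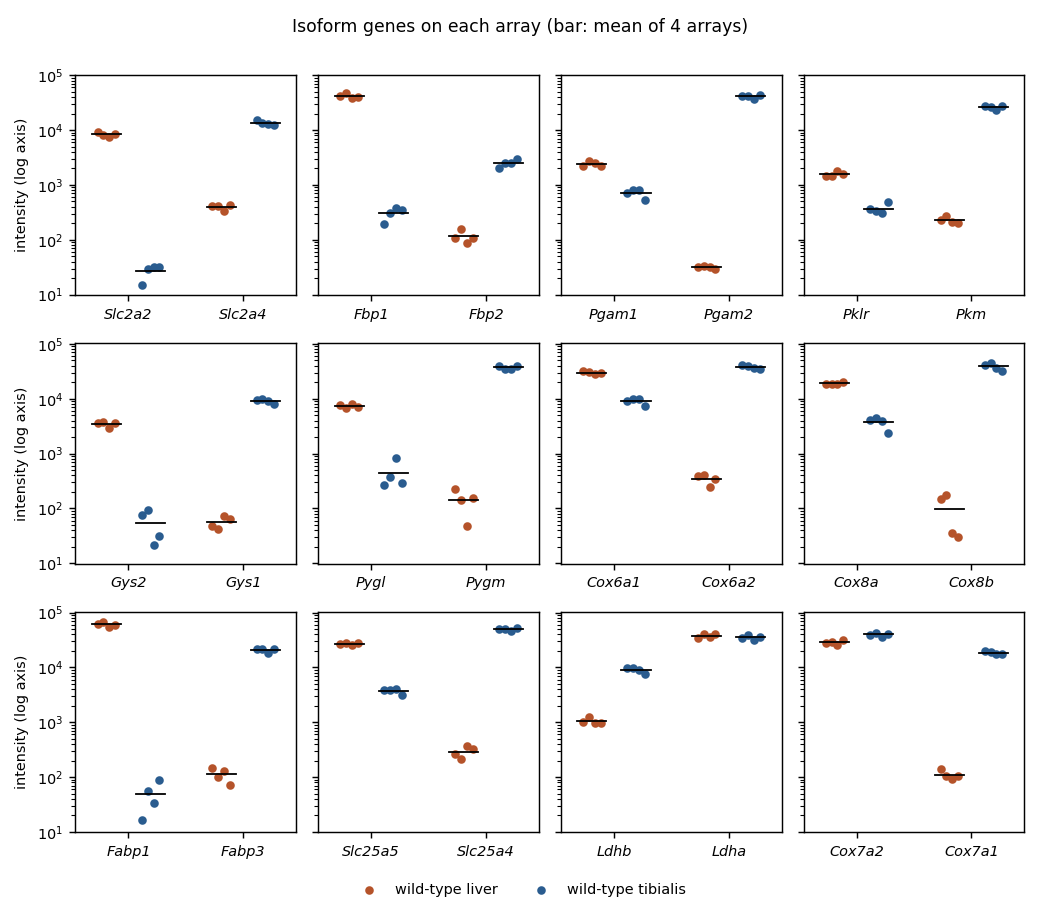
Intensity (log axis) of isoform genes on each wild-type array, liver to the left of tibialis, with a bar at the mean of 4 arrays. Slc2a2 and Slc2a4, and the other exchanged genes, change places between the tissues, while Ldha overlaps and Cox7a2 is high in both. Levels of different genes come from different probe sets and are not comparable.

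Around the citric acid cycle, Pdk4, a kinase that shuts pyruvate dehydrogenase, read 208 to 597 in liver and 9870 to 16092 in tibialis (-5.09), and Pdk2, a widely expressed kinase, followed (-2.56). Pdk1 passed the other way without reaching 2-fold (0.58). Idh1, the cytosolic NADP-linked isocitrate dehydrogenase, read 14576 to 15250 in liver and 860 to 1256 in tibialis (3.82). Of the mitochondrial genes, Idh2 was higher in tibialis (-1.29), as was Idh3a, the catalytic subunit of the cycle's own enzyme (-3.40). Of the other subunits of that enzyme, Idh3g was higher in tibialis (-2.35) and Idh3b did not pass (-0.28, adjusted p = 0.129). Aco1, the cytosolic aconitase, was higher in liver (2.16), as Idh1 was. Suclg2, the GTP-forming subunit of succinyl-CoA synthetase, was higher in liver (1.67), and Sucla2, the ATP-forming subunit, was higher in tibialis (-0.89). Slc25a13, an aspartate-glutamate carrier that also serves the urea cycle, read 11079, 11556, 10896 and 8767 in liver, against 48.8, 64.3, 68.7 and 84.7 in tibialis (6.51, SE 0.14).

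The respiratory chain has paired subunits in cytochrome c oxidase, and in 3 pairs the heart and muscle form was far lower in liver. Cox6a2 (-6.60), Cox7a1 (-6.87) and Cox8b (-8.19) were each higher in tibialis. Cox8b read 147, 178, 35.8 and 30.7 in liver, against 42080, 44860, 36376 and 32718 in tibialis. The partners behaved unequally. Cox6a1 (1.74) and Cox8a (2.36) were higher in liver, at 28145 to 31613 and 18360 to 20489 in liver, against 7295 to 9972 and 2421 to 4447 in tibialis. Cox7a2 went against its name, reading 28093, 29025, 25997 and 32029 in liver, against 39322, 42672, 36694 and 41415 in tibialis (-0.48, SE 0.12, adjusted p = 0.00748). The difference did not pass with all arrays set to a common median (-0.29, adjusted p = 0.0906). The adenine nucleotide carriers exchanged, with Slc25a5 at 25248 to 28017 in liver and 3092 to 4068 in tibialis (2.83), and Slc25a4 at 213 to 369 in liver and 45823 to 51677 in tibialis (-7.21). Ucp3, an uncoupling protein of muscle, was higher in tibialis (-3.32).

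The Cox8 promoters are shown because they repeat the contrast in composition of the Pgam pair. The Cox8a window (chr19:7217567-7217866, minus strand) held 19 CpG dinucleotides and neither motif. The Cox8b window (chr7:140900397-140900696, minus strand) held 2 CpG dinucleotides and 2 E boxes, 19 bases before and 17 after the start.
Cox8a: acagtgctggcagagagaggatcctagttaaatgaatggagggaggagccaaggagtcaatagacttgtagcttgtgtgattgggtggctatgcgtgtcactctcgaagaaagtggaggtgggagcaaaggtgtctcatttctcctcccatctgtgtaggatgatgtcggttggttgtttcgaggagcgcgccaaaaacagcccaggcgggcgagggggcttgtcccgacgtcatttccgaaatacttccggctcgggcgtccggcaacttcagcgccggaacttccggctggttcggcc
Cox8b: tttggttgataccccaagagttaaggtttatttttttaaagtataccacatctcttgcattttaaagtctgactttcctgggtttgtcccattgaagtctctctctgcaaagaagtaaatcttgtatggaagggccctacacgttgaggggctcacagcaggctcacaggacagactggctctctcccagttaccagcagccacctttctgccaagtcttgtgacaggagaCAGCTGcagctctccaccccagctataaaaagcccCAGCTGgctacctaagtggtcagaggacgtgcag

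That contrast did not hold across the pairs. Of 19 pairs with both promoters, the liver type had more CpG dinucleotides in 9, the muscle type in 9 and 1 pair was equal. Slc25a5 had 18 CpG dinucleotides against 25 for Slc25a4, and Pklr had a median of 5.5 over 2 starts against 25 for Pkm. RefSeq promoters were matched for 138 of the 168 genes. Over all starts, the median CpG count was 14 for 59 promoters of genes at least 2-fold higher in liver, 13 for 66 promoters of genes at least 2-fold higher in tibialis, and 7 for all 32851 promoters. The E box was found in 10 of the 59 liver promoters and 18 of the 66 tibialis promoters, and in 16.3% of all promoters of this length. GTTAAT was found in 6 of the 59 liver promoters and 0 of the 66 tibialis promoters, and in 7.1% of all. The 63 promoters of the other isoform genes had a median CpG count of 16, with the E box in 11 and GTTAAT in 2. Several starts of a gene share sequence, and these matches describe the letters only.

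Of the 22 genes grouped under energy buffering, 7 were higher in liver and 10 in tibialis, beside 20.5% and 31.1% of all probe sets. The group includes 8 carbonic anhydrases, which do not buffer energy, 3 of them higher in liver and 3 in tibialis. Ckm, the cytosolic muscle creatine kinase, read 234, 363, 351 and 199 in liver, against 60944, 61973, 53558 and 64643 in tibialis (-7.52, SE 0.18). Ckmt2, the sarcomeric mitochondrial form, read 9.2 to 57.6 in liver and 33809 to 36672 in tibialis (-8.87). Gamt, the last enzyme of creatine synthesis, was higher in liver (1.85), and Slc6a8, the transporter that takes creatine up, was higher in tibialis (-3.70). Ak1, the cytosolic adenylate kinase of muscle, was higher in tibialis (-6.26), and the mitochondrial forms Ak3 (1.96) and Ak4 (3.01) were higher in liver. Adss and Adssl1, the liver and muscle adenylosuccinate synthetases of purine cycling, differed by 1.61 and -4.85. Car3, the carbonic anhydrase named for muscle, was bright in both tissues, at 25579, 26349, 35785 and 16751 in liver, against 42363, 40376, 40736 and 46918 in tibialis (-0.75, SE 0.21, adjusted p = 0.014). That call ended with the median over its probe sets (-0.50, adjusted p = 0.104). Car5a, a mitochondrial form named for liver, was higher in liver (3.75), and the lung and endothelial form Car4 was higher in tibialis (-2.37).

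Of the 41 genes of fatty acid handling, 24 were higher in liver and 12 in tibialis, beside 20.5% and 31.1% of all probe sets. Fabp1, the liver fatty acid binding protein, read 62735, 67255, 53648 and 59978 in liver, against 16.5, 56.2, 34.5 and 90.5 in tibialis (9.31, SE 0.22, adjusted p = 1.16e-09). Fabp2, named for intestine, was also higher in liver (6.95), at 10679 to 12684 against 24.4 to 69.8 in tibialis. Fabp3, the heart and muscle form, read 72.0 to 144 in liver and 18386 to 21894 in tibialis (-7.03). The Fabp1 promoter (chr6:71199629-71199928, plus strand) is shown because it held both motifs, GTTAAT 107 bases before the start and an E box 19 bases after it, with 3 CpG dinucleotides.
Fabp1: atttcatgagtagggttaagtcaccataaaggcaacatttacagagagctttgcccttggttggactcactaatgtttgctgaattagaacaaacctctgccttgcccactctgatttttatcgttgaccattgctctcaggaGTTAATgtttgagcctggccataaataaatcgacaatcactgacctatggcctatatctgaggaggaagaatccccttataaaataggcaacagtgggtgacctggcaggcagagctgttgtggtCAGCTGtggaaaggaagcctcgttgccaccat

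Uptake and activation genes were divided as well. Slc27a2, a very long chain acyl-CoA synthetase, read 46169, 40105, 41094 and 45761 in liver, against 39.0, 50.7, 34.2 and 54.0 in tibialis (8.84, SE 0.12). Slc27a5, the bile acid and fatty acid ligase of liver, differed by 6.57, and Slc27a1, the muscle and fat transporter, by -1.05. Cpt1a, the liver gate to mitochondrial oxidation, read 14388 to 16383 in liver and 953 to 1142 in tibialis (3.82). Its inhibitor malonyl-CoA is made at the mitochondrion by the product of Acacb, which read 474 to 859 in liver and 4054 to 4666 in tibialis (-2.60). Acaca, the cytosolic enzyme of lipogenesis, read 322, 328, 326 and 288 in liver, against 162, 168, 149 and 303 in tibialis. Acaca passed at 0.62 (SE 0.19, adjusted p = 0.0201) although tibialis array 4 lay within the liver range, and its call ended without tibialis array 1, 2 or 3 (0.53 to 0.57). Ehhadh, the peroxisomal bifunctional enzyme, was higher in liver (6.45). Hadha (0.86) and Hadhb (0.35), the subunits of the mitochondrial trifunctional enzyme, were listed here under muscle and passed in the liver direction. Hadhb lost that direction when all its probe sets were combined by their median (-0.07), and its call ended without any of the liver arrays or tibialis array 2, 3 or 4 (0.27 to 0.37).

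Among genes of lipid synthesis, Elovl2 (6.55), Elovl3 (5.41), Elovl5 (4.06) and Elovl6 (1.93), which lengthen fatty acids, were all at least 2-fold higher there, as was Dgat2 (2.49), which completes triglyceride. Lpin2 and Lpin1, phosphatidate phosphatases named for liver and muscle, differed by 4.43 and -1.92. Scd1, the main liver desaturase, read 31911, 41208, 46281 and 43161 in liver, against 6868, 9216, 16407 and 6095 in tibialis (2.17, SE 0.29). Scd2 differed the other way (-3.10).

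Several genes that adipocytes and capillaries also use were higher in tibialis. Fabp4, the binding protein of fat and endothelium, read 278 to 417 in liver and 14274 to 17838 in tibialis (-5.32). Lpl, which frees fatty acids from lipoproteins, read 619 to 1017 in liver and 15265 to 23676 in tibialis (-4.47). Aqp7, the glycerol channel of fat and muscle, read 0.9 to 32.3 in liver and 259 to 540 in tibialis (-2.83). Of the 4 measured adipocyte markers 3 were higher in tibialis and 1, Cidec, was higher in liver. Their intensities summed to 1014 to 2090 in liver and 2155 to 7328 in tibialis. The 9 endothelial markers summed to 3773 to 4219 in liver and 14080 to 17669 in tibialis. Tibialis array 3 was the highest of its group for Adipoq, Scd1 and Fabp4. For Lpl the highest was array 1 (23676), and for Aqp7 it was array 4 (540). The part of these cells in the readings was not tested.

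Ketone bodies are made in liver and burned in other tissues. Bdh1, the last step of synthesis, read 11750 to 15178 in liver and 1529 to 2692 in tibialis (2.66). Oxct1, the transferase that commits ketones to oxidation, read 10.4, 11.3, 13.9 and 9.6 in liver, against 13171, 14617, 13215 and 12967 in tibialis (-7.79, SE 0.11, adjusted p = 6.73e-11).

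Amino acid genes gave the highest difference among the isoform genes. Arg1, the arginase that ends the urea cycle, read 41950, 44398, 38753 and 48605 in liver, against 5.9, 8.0, 9.2 and 15.1 in tibialis (9.51, SE 0.12, adjusted p = 6.42e-11). Mat1a, the liver methionine adenosyltransferase, read 33023 to 40725 in liver and 29.0 to 89.2 in tibialis (8.53). Mat2b, a regulator of the form used elsewhere, was higher in tibialis (-1.34). Alanine aminotransferase did not divide by name, since Gpt (3.02) and Gpt2 (0.91), named for muscle, were both higher in liver. Gpt2 read 6913 to 7530 in liver and 3091 to 4263 in tibialis, with no overlap. Got1, the cytosolic aspartate aminotransferase, read 10856, 14803, 19606 and 12195 in liver, against 21256, 20869, 17400 and 23103 in tibialis, with overlapping groups (-0.55, SE 0.19, adjusted p = 0.038). Its call ended without liver array 1, 2 or 4 or tibialis array 1, 2 or 4 (-0.58 to -0.43).

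Glycerol entry was divided between Aqp7, given above, and the liver channel. Aqp9, the glycerol channel of liver, read 13146 to 18775 in liver and 39.4 to 95.8 in tibialis (7.20), and Khk, which phosphorylates fructose, read 7223 to 9134 in liver and 563 to 774 in tibialis (3.46). Adh1 (4.07), Adh4 (5.84) and Adh5 (1.76), alcohol dehydrogenases, were all higher in liver.

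The ratio of the liver-type to the muscle-type gene within an array, as a difference of log2(value + 50), was also compared for each pair. The added 50 leaves such a ratio open to the scaling of the array where a gene is dim. Of 38 pairs listed, 25 had both genes measured. In all 25 pairs the ratio was higher in liver on 4 of 4 arrays, with no overlap, and each reached the smallest p that an exact two-sided permutation test of 4 against 4 arrays allows (p = 0.0286, adjusted p = 0.0286 over the 25 pairs). The pairs were chosen by what the genes are named for, with results of these arrays known, so their shared direction is no independent support. The median difference of the ratio was 6.46 log2 units, the lowest was 2.11 for Gpt over Gpt2, and the highest was 16.34 for Fabp1 over Fabp3. With a pseudocount of 1 or 200 in place of 50, the median was 7.93 or 6.08 and the highest 18.05 or 14.01. In 15 pairs both genes differed at least 2-fold in opposite directions. In 6 pairs only the muscle-type gene did, among them Pfkl over Pfkm and Cox7a2 over Cox7a1. In 4 pairs only the liver-type gene did, among them Gpt over Gpt2.

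**Figure D3:**
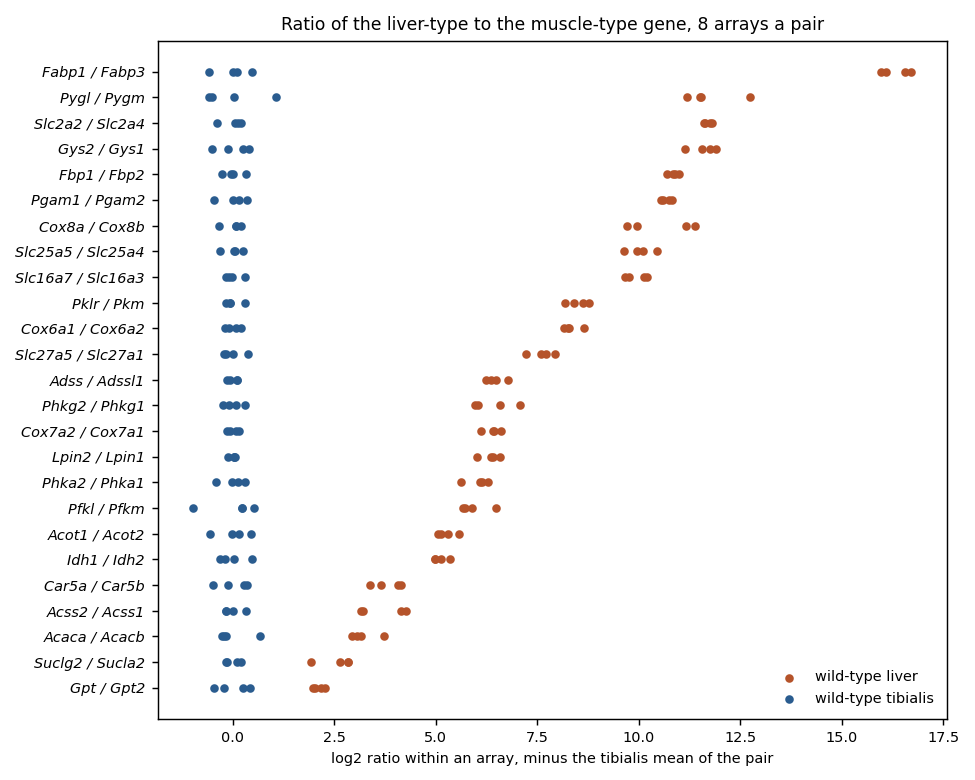
Log2 ratio of the liver-type to the muscle-type gene on each wild-type array (x axis), shown relative to the tibialis mean of the pair, for 25 pairs ordered by difference. The liver arrays lie right of the tibialis arrays in all 25 pairs, by 2.11 for Gpt over Gpt2 and 16.34 for Fabp1 over Fabp3.

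The dim level also described which isoforms were read in each tissue. A gene was taken as above the dim level in a tissue when all 4 arrays exceeded it, and as dim when none did. By this description 101 of the 168 genes were above in both tissues, 19 were above in liver and dim in tibialis, and 18 were above in tibialis and dim in liver. All 55 genes named for liver were above the dim level in liver, and 31 of them were also above it in tibialis. Of the 45 named for muscle, 44 were above in tibialis and 29 also in liver. The same classes were not counted over all probe sets. Since the level is a percentile of all probe sets, a fixed share of them lies above it on every array. Whether the isoform genes exceed the share of all probe sets in these classes was not tested. No detection calls were used, so dim readings do not show absence.

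The pathways around these families were also counted, from lists chosen with results of these arrays known. Of all probe sets, 20.5% were higher in liver and 31.1% in tibialis. Of 35 respiratory chain subunits without tissue isoforms, 30 were higher in tibialis and 0 in liver, with a median of -0.91. Ndufb10, a subunit of complex I, read 4044 to 4318 in liver and 17314 to 20509 in tibialis (-2.14), while Uqcrb, of complex III, read 39093 to 44761 in liver and 36629 to 46371 in tibialis. Of 16 citric acid cycle genes, 13 were higher in tibialis and 1 in liver (median -0.87), with citrate synthase, Cs, at 2358 to 2865 in liver and 19419 to 23592 in tibialis (-3.00). Mitochondrial fatty acid oxidation went the other way, with 15 of 16 genes higher in liver, 0 higher in tibialis and a median of 0.87. Of the 16, 7 were at least 2-fold higher in liver. In the knockout arrays 11 of the 16 were higher in liver and 1 in tibialis. In wild type Acaa2, a thiolase, was highest (2.23), and Acadl, a long-chain dehydrogenase, did not pass (-0.08). In peroxisomal oxidation 8 of 9 genes were higher in liver (median 3.22), led by the thiolase Acaa1b at 44032 to 61187 in liver and 28.6 to 94.3 in tibialis. Crat, carnitine acetyltransferase, was the 1 gene higher in tibialis (-1.61). Of 14 proteasome core genes, 3 were higher in liver and 4 in tibialis, and of 15 ribosomal protein genes, 1 was higher in liver and 5 in tibialis. With a common median these counts were 5 and 1 for the proteasome and 2 and 3 for the ribosome, and the proteasome median turned from -0.03 to 0.16. The medians of the other 4 lists kept their sign under both other scalings.

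**Figure D4:**
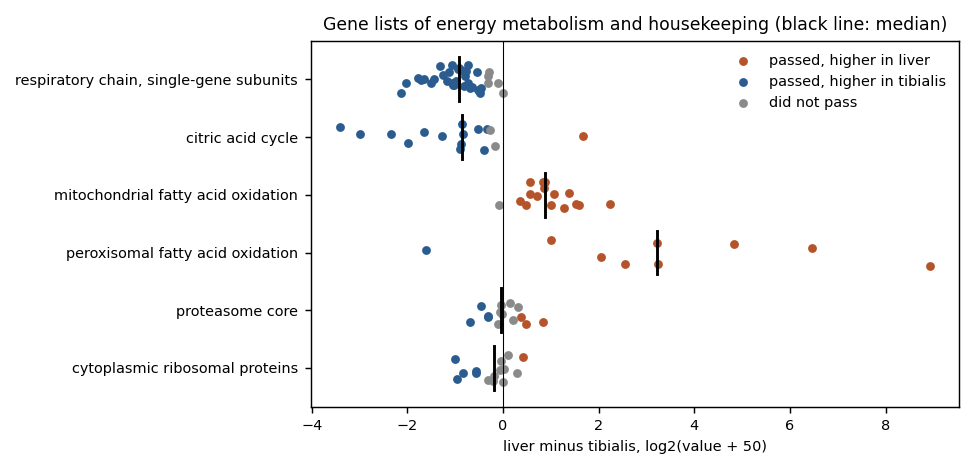
Difference between liver and tibialis (x axis, log2(value + 50)) for the genes of 6 lists, coloured by whether each passed and in which direction, with a black line at the median of the list. The medians are -0.91 for the respiratory chain, -0.87 for the citric acid cycle, 0.87 for mitochondrial and 3.22 for peroxisomal fatty acid oxidation.

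Liver functions with no counterpart in muscle gave the far end of the scale. All 18 measured plasma protein genes (median 8.29), all 6 of the urea cycle (6.91) and all 13 of bile acid synthesis and transport (5.03) were at least 2-fold higher in liver. Cyp27a1, a sterol hydroxylase of bile acid synthesis, differed least among the bile acid genes, at 15344 to 18069 in liver and 3737 to 4238 in tibialis (2.04). Hp, haptoglobin, read 49176 to 57380 in liver, against 461, 1554, 2164 and 104 in tibialis (6.18, SE 0.71). Its tibialis readings were highest on the arrays with most Adipoq, and the part of adipocyte RNA in them was not tested.

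The knockout arrays gave the same comparison in tissue that shares no array with the wild type. Each tissue belongs to the same code series as in the wild type, so tissue and code series cannot be told apart here either. Each gene was read by the probe set chosen on the wild-type arrays. In them 134 of the 168 genes passed, beside 50.8% of all probe sets, 56 at least 2-fold higher in liver (11.5% of all probe sets) and 55 at least 2-fold higher in tibialis (17.8%). Of the 138 genes that passed in wild type, 126 passed in the same direction in the knockout and 0 in the opposite one. The 2-fold calls shared 103 genes, which is 89.6% of the 115 in wild type and 92.8% of the 111 in the knockout. These overlaps were not counted over all probe sets, so no excess among the isoform genes is read from them. Gys1, the disrupted gene, read 37.8 ± 21.2 in knockout liver and 50 ± 18.9 in knockout tibialis (SD, n = 4 each), so that its difference was -0.20 and did not pass. A limma fit of tissue by genotype over 16 arrays found a tissue difference that differed between genotypes for 4 of the 168 genes, beside 0.296% of all probe sets.

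**Figure D5:**
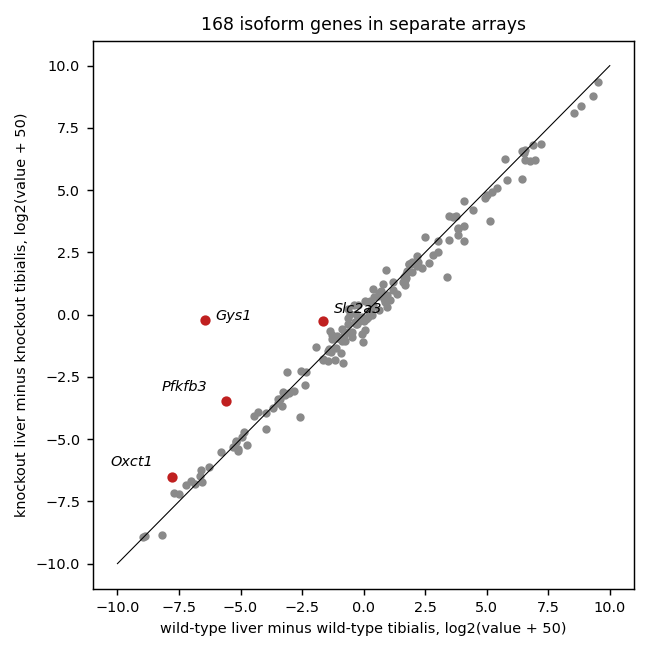
Difference between liver and tibialis in the knockout (y axis) against that in wild type (x axis), both in log2(value + 50), for the 168 isoform genes, with a line of equal difference. Red points are the 4 genes whose difference differed between genotypes, among them Gys1 at -6.45 in wild type and -0.20 in the knockout.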

How the data were processed

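The 8 wild-type arrays of liver and tibialis, and 8 knockout arrays, were read from the deposited value table of the series, which holds intensity values on a linear scale as processed by the authors. How probes were summarised is not stated in the labels or the table. The values show a common trimmed mean per array, so arrays had been scaled, and array number limits the precision. No 2 arrays shared more than 0.124% identical values.

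The 64 control probe sets were left out, and values were analysed as log2(value + 50) with no added normalization, which shrinks differences of dim genes. Of 22626 probe sets, 20380 had 1 gene symbol in the supplied platform annotation, 691 several and 1555 none. Tissues were compared with limma 3.58.1 (lmFit, eBayes) in R 4.3.3, per genotype, with Benjamini-Hochberg adjustment over all probe sets. A gene passed under an adjusted p of 0.05, and 2-fold also requires a log2 difference of at least 1. Ratios of gene pairs were compared by exact two-sided permutation. The fit was tested on simulated data. Of the isoform genes, 81 had several probe sets, of which 52 gave 1 call on all, 28 gave it on some and 1, Hadhb, gave opposite calls. Among the isoform genes given above that passed, another probe set did not pass for Slc2a3, Aldoc, Pck1, Phka2, Cox8a, Ak1, Ak4, Car3 and Scd2.

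Families, pairs, lists and members were chosen with earlier results of these data known. Genes named are the family genes, the 8 highest and 8 lowest differences without overlap, and list genes by at most 2 at each end, plus Adipoq and Cidec beside the fatty acid genes. Alternatives were other scalings, pseudocounts, a dim filter, other variance models, all 34 arrays in 1 fit, the median over probe sets and each array left out. A test of tissue by genotype over 16 arrays was chosen after the data were seen. Genes without a named probe set were not analysed here.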

Additional observations from a re-analysis of the deposited data

Results flagged for a closer look

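The tissue difference itself differed between genotypes for 4 of the 168 isoform genes and 67 of all 22626 probe sets, by a test of that difference in 1 limma fit over 16 arrays chosen after the data were seen. The value is the knockout difference minus the wild-type difference, in log2 units. Gys1, the disrupted gene, gave 6.25 (SE 0.25, adjusted p = 1.57e-09). Pfkfb3 gave 2.09 (SE 0.23, adjusted p = 0.000551), at 152 ± 41 in knockout liver and 2199 ± 386 in knockout tibialis (SD, n = 4 each). Slc2a3 gave 1.40 (SE 0.18, adjusted p = 0.00266), at 205 ± 42 in knockout liver and 249 ± 20 in knockout tibialis. Oxct1 gave 1.27 (SE 0.19, adjusted p = 0.00791), at 24.6 ± 16.7 in knockout liver and 6698 ± 594 in knockout tibialis.

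In 14 of 214 groups of 4 wild-type arrays, 1 array stood far from the other 3, where chance gives about 1 in 20. In liver, array 4 was high for Hk2 (401.8) and Cox8a (20489) and low for Acaca (287.9). Array 3 was low for Gys2 (2957) and Mat1a (33023), and array 1 was low for Slc27a1 (572.0). In tibialis, array 3 was low for Pkm (23123), Slc25a4 (45823) and Fabp3 (18387). Array 4 was low for Slc2a3 (651.3) and high for Phkb (9415) and Acaca (303.3). Array 2 was high for Oxct1 (14617), and array 1 was high for Adh4 (131.8). Of these genes, Acaca alone had groups that overlapped between the tissues.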

How the results depend on the processing

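Of the 138 isoform genes that passed, 130 kept their direction and their call under every alternative that tested them, as did 114 of the 115 genes with at least 2-fold differences. The exception among those 115 was Car1 (1.18, adjusted p = 0.0446), which was dim in tibialis. All 25 pair ratios stayed higher in liver under every alternative run. The genes passing ranged from 133 to 144 in wild type and from 129 to 139 in the knockout. Over all probe sets, the calls were 4647 higher in liver and 7035 higher in tibialis, against 5437 and 6226 after quantile normalization and 5642 and 5837 with a common median. Probe sets passing ranged from 9417 to 11749, the lowest with the dim filter, which tests 13576.

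With the 30th percentile as the dim level, 10 genes were above in tibialis and dim in liver, against 18. Signs turned for Hadhb (-0.072) and Slc2a1 (-0.32) with the median over probe sets, for Ldha (-0.15) after quantile normalization and for Slc16a1 (0.16) with a common median. Slc16a1 ran from -0.104 to 0.0263 with 1 array left out. Of the 30 genes that did not pass, 17 changed sign somewhere. Calls ended for Car3 with the median over probe sets (-0.50, adjusted p = 0.104) and for the genes named above. No paired analysis was possible because the replicate numbers follow the order of accession and tie no liver array to a tibialis array. Without detection calls, readings of dim genes limit both folds and statements of absence.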
